A study of Mus musculus with 8 samples.

Results

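The genes described here are 10 genes of the lung surfactant system and the lung epithelium: Sftpc, Sftpb, Sftpa1, Sftpd, Lamp3, Napsa, Slc34a2, Scgb1a1, Ager and Abca3. They were 10 of the 20162 genes that could be tested, and all 10 passed the filter on low counts. They were chosen by their high values in 2 of the 8 libraries, the ones called SmoM2 3 and control 4, so their levels in those libraries are given as a description and carry no test. The stated choice did not hold for every gene. Scgb1a1 was lowest in these libraries, Ager was high in control 4 alone, and Abca3 was 1.35 times the median of the 6 other libraries in SmoM2 3 and 1.19 times in control 4.

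The libraries are bulk poly(A) RNA-seq of lung stroma from adult mice. The 4 SmoM2-labelled samples came from Gli2creERT2-tdt:R26RYFP/SmoM2 mice given tamoxifen at 200 mg/kg per day for 5 days, and the 4 control samples came from Gli2creERT2-tdt:R26RYFP mice, whose dosing is not given in the sources used here. SmoM2 is a constitutively active form of Smoothened, the transducer of hedgehog signalling. All 8 mice carried the tamoxifen-inducible Cre driven from Gli2 and the Cre-dependent YFP reporter. Whole lungs were digested and live single YFP+ cells were sorted, so any cell with Gli2-driven recombination could enter the sort. The libraries are numbered by their table column within each group, and which animal of a group gave which library is not known. The tests measure only the spread between these samples.

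Surfactant is the lipid and protein film that keeps alveoli open. Alveolar type 2 cells make it, store it in lamellar bodies and secrete it, alveolar type 1 cells form the thin gas exchange surface, and club cells secrete protein into the small airways. None of these genes is a usual marker of lung fibroblasts, the main cell type of a stromal sort.

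Library totals ran between 91616181 and 111615243 deposited units. The most frequent value above 0 was 5 units, which corresponds to about 18323236 to 22323049 fragments if 1 fragment is worth 5 units; a worth of 4 units cannot be told apart from these values. Levels below are CPM, the usual depth-scaled counts, on library sizes scaled by TMM, the trimmed mean of M-values. Gli1, a direct hedgehog target, averaged 101 ± 21.5 CPM in SmoM2-labelled and 99.3 ± 32.9 CPM in control libraries (SD, n = 4 each), a log2 difference of 0.03 with a 95% interval of −0.54 to 0.60. Gli1 thus did not tell the 2 labels apart. Fibroblast markers were abundant and summed to 25105 to 38054 CPM over 15 genes in the 8 libraries. The pan-epithelial surface gene Epcam averaged 2.07 ± 0.708 CPM in SmoM2-labelled and 2.25 ± 0.934 CPM in control libraries.

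The 10 genes together took between 0.033% and 0.193% of the units in a library. Their summed level was 550, 377, 1208 and 328 CPM in SmoM2 1 to 4, against 406, 487, 494 and 1824 CPM in control 1 to 4. One library in each group stood above the rest, and the groups overlapped. In bulk RNA a larger number of cells of a type and more RNA per cell cannot be told apart.

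**Figure D1:**
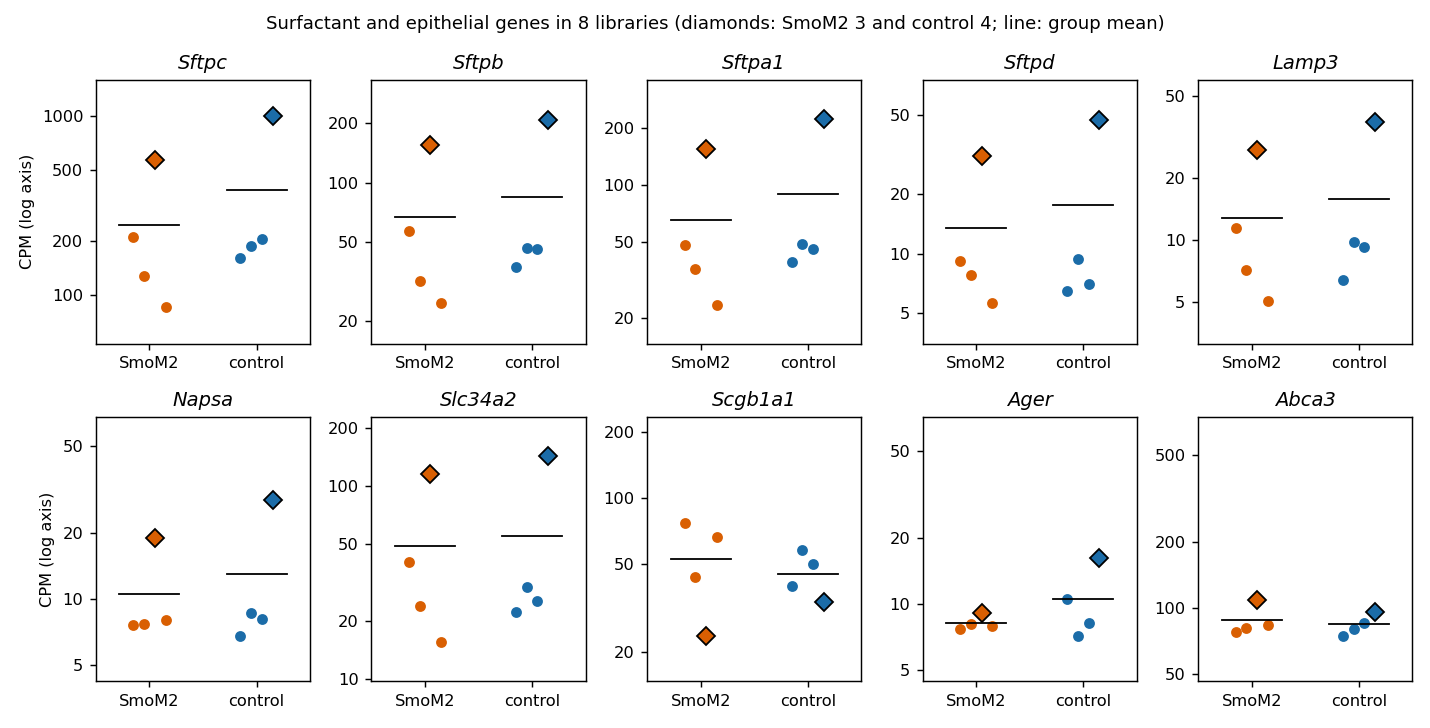
Level of each of the 10 genes in each library, in CPM on a log axis, with SmoM2-labelled libraries left of control libraries and a line at each group mean. SmoM2 3 and control 4 were the 2 highest libraries for 8 genes and the 2 lowest for Scgb1a1.

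Sftpc encodes surfactant protein C, a hydrophobic peptide made by alveolar type 2 cells (ENSMUSG00000022097, mm10 chromosome 14, 70520949 to 70524081, minus strand). Its level was 213, 129, 564 and 86.4 CPM in SmoM2 1 to 4, against 162, 188, 207 and 992 CPM in control 1 to 4. SmoM2 3 and control 4 were the 2 highest, with control 4 above SmoM2 3, and the 6 others of both groups interleaved. By level, Sftpc ranked 219 among genes in SmoM2 3 and 99 in control 4, whereas its rank in the other 6 libraries was between 736 and 2257.

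Sftpb encodes surfactant protein B, the hydrophobic protein that spreads the lipid film (ENSMUSG00000056370, chromosome 6, 72304610 to 72314371, plus strand). It was at 57.0, 32.0, 155 and 24.7 CPM in SmoM2 1 to 4, against 37.6, 46.9, 46.2 and 207 CPM in control 1 to 4. The same libraries were high and low as for Sftpc. Sftpa1 encodes surfactant protein A, a collectin that binds microbes and lipid (ENSMUSG00000021789, chromosome 14, 41131782 to 41136452, plus strand). Its values were 48.5, 36.0, 155 and 23.5 CPM in SmoM2 1 to 4, against 39.5, 49.3, 46.2 and 224 CPM in control 1 to 4, with the groups overlapping. Sftpd, the gene of the second lung collectin (ENSMUSG00000021795, chromosome 14, 41172214 to 41185149, minus strand), was at 9.21, 7.83, 31.0 and 5.63 CPM in SmoM2 1 to 4, against 6.50, 9.35, 7.0 and 47.0 CPM in control 1 to 4. Of the 10 genes it had the highest ratio in control 4, at 6.34 times the median of the 6 other libraries, and its ratio in SmoM2 3 was 4.17. The smallest count behind these 4 genes was about 119 fragments, for Sftpd, and the largest about 23474, for Sftpc. Over all 10 genes the smallest count was about 106 fragments, for Lamp3, which gives a counting error of 9.7% and covers counting alone.

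The lipid and lamellar body genes fell into 2 kinds. Lamp3, a lysosomal and lamellar body membrane protein (ENSMUSG00000041247, chromosome 16, 19653378 to 19706375, minus strand), was at 11.4, 7.17, 27.4 and 5.03 CPM in SmoM2 1 to 4, against 6.40, 9.78, 9.21 and 37.3 CPM in control 1 to 4. Napsa, an aspartic protease that processes pro-surfactant protein B (ENSMUSG00000002204, chromosome 7, 44572380 to 44586862, plus strand), was at 7.62, 7.69, 19.0 and 7.99 CPM in SmoM2 1 to 4, against 6.77, 8.60, 8.09 and 28.4 CPM in control 1 to 4. Both had the same 2 high libraries, and Napsa was nearly level in the rest, between 6.77 and 8.60 CPM. Slc34a2, the phosphate transporter of alveolar type 2 cells (ENSMUSG00000029188, chromosome 5, 53038081 to 53071664, plus strand), was at 40.3, 23.9, 115 and 15.6 CPM in SmoM2 1 to 4, against 22.1, 29.9, 25.3 and 142 CPM in control 1 to 4. It had the highest ratio of the 10 genes in SmoM2 3, at 4.68.

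Abca3, the lipid transporter that loads lamellar bodies (ENSMUSG00000024130, chromosome 17, 24351950 to 24410201, plus strand), varied least. It was at 77.8, 81.8, 109 and 83.9 CPM in SmoM2 1 to 4, against 74.7, 80.4, 86.1 and 96.8 CPM in control 1 to 4. Its highest library was 1.5 times its lowest, whereas for Sftpc that ratio was 11.5. SmoM2 3 stood 28.2 CPM and control 4 15.7 CPM above the median of the other 6 libraries, and the remaining libraries of both groups lay between 74.7 and 86.1 CPM.

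Ager encodes RAGE, the receptor abundant on alveolar type 1 cells (ENSMUSG00000015452, chromosome 17, 34597862 to 34600936, plus strand). Its level was 7.70, 8.12, 9.11 and 7.96 CPM in SmoM2 1 to 4, against 10.6, 7.14, 8.21 and 16.2 CPM in control 1 to 4. Control 4 was the highest and control 1 the next, and SmoM2 3 was 1.13 times the median of the 6 other libraries. Scgb1a1 encodes the club cell secretory protein (ENSMUSG00000024653, chromosome 19, 9083636 to 9087958, minus strand). It was at 77.6, 43.8, 23.5 and 66.8 CPM in SmoM2 1 to 4, against 39.7, 58.0, 50.3 and 33.8 CPM in control 1 to 4. SmoM2 3 and control 4, the highest libraries for the surfactant genes, were the lowest of all for Scgb1a1.

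Set against the whole table, 7 of the 10 genes were over 2-fold above the median of the 6 other libraries in both SmoM2 3 and control 4: Sftpc, Sftpb, Sftpa1, Sftpd, Lamp3, Napsa and Slc34a2. Over all tested genes 550 did so, 2.73%, and the median ratio of all tested genes was 1.0 in each library. The choice of the genes used these levels, so nothing is read from this share. These 7 genes of alveolar type 2 cells summed to 387, 244, 1066 and 169 CPM in SmoM2 1 to 4, against 281, 341, 349 and 1677 CPM in control 1 to 4. Among the 6 other libraries SmoM2 4 was the lowest for 6 of the 7, and for Napsa control 1 was. The highest of those 6 was SmoM2 1 for 4 of the 7 genes and control 2 for the other 3.

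Levels can be set between genes only per length. Over the 6 other libraries, the median level per kilobase of exon was 169 CPM per kb for Sftpc and 114 for Scgb1a1. Sftpb had 21.3, Sftpa1 15.0, Abca3 8.65 and Slc34a2 4.91 CPM per kb. Ager had 3.76, Sftpd 3.07, Napsa 2.95 and Lamp3 2.44 CPM per kb. Neighbours in this order had overlapping ranges over the 6 libraries, except that the lowest Scgb1a1 value, 83.3 CPM per kb, was above the highest of Sftpb, 29.0. In SmoM2 3 the per-length level of Sftpc was 545 CPM per kb and that of Scgb1a1 49.4, and in control 4 they were 959 and 71.0.

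Within a library, Sftpb and Sftpa1 kept a near-constant ratio to Sftpc. The level of Sftpb was 0.209 to 0.286 times that of Sftpc, and that of Sftpa1 was 0.223 to 0.279 times, over all 8 libraries. The highest ratio was thus 1.37 times the lowest for Sftpb and 1.25 times for Sftpa1, while their own levels differed 8.4-fold and 9.5-fold between libraries. The same spread of the ratio was 1.55 for Lamp3, 1.67 for Slc34a2, 1.93 for Sftpd and 3.23 for Napsa. It was larger for Ager, at 5.71, for Abca3, at 9.95, and for Scgb1a1, at 22.67. The ratio to Sftpc therefore varied less than the level itself for Sftpb, Sftpa1, Lamp3, Slc34a2, Sftpd and Napsa, and more for the other three genes.

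One ratio separated the groups. The level of Slc34a2 relative to Sftpc was 0.19, 0.185, 0.204 and 0.18 in SmoM2 1 to 4, against 0.137, 0.16, 0.122 and 0.143 in control 1 to 4. Every SmoM2-labelled library was above every control library, SmoM2 3 and control 4 included, although the level of Slc34a2 itself overlapped between the groups. The ratio was singled out after its values were seen, as the 1 of the 9 ratios whose groups did not overlap, and it was not tested. Over the 20161 tested genes other than Sftpc, 34 (0.169%) had a ratio to Sftpc whose groups did not overlap. Nothing is read from that share, since the ratio of any gene carries the spread of Sftpc. For Sftpb the ratios were 0.248 to 0.286 in SmoM2-labelled and 0.209 to 0.25 in control libraries, which overlapped.

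**Figure D2:**
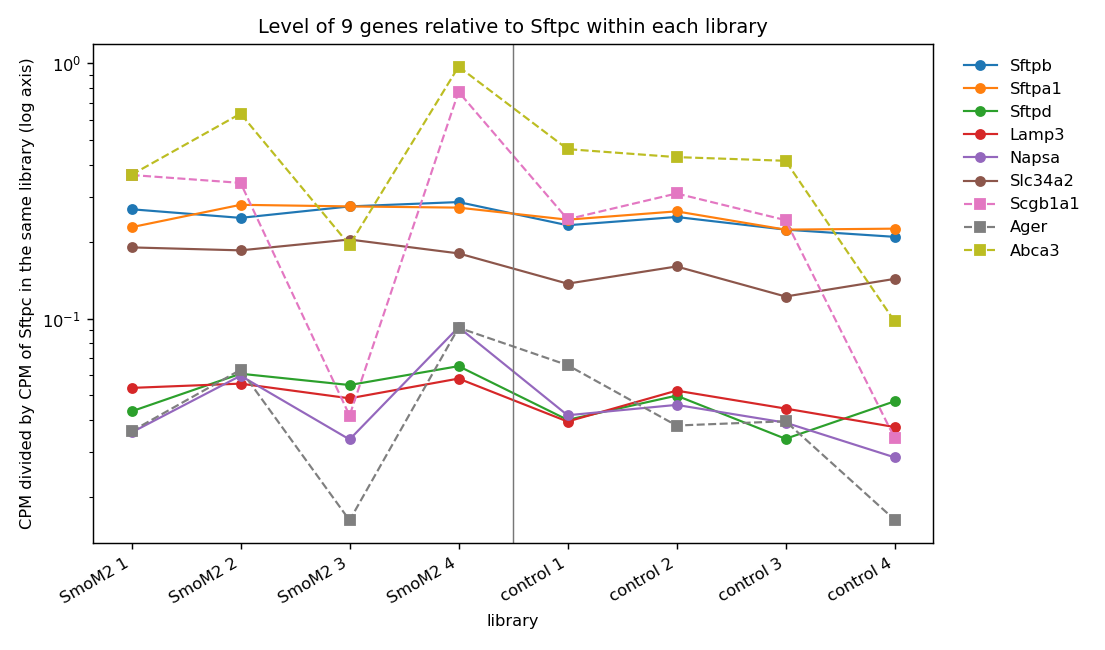
Level of each gene relative to Sftpc in the same library, on a log axis, for SmoM2 1 to 4 and then control 1 to 4; lines join the points of 1 gene. The Sftpb and Sftpa1 ratios are nearly flat, between 0.209 and 0.286, whereas that of Scgb1a1 runs between 0.0341 and 0.773. The Slc34a2 ratio is 0.18 or more in each SmoM2-labelled library and 0.16 or less in each control library.

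As a description over the 8 libraries, which share a sort and a kit, Pearson's r of log2 CPM with Sftpc was 0.993 for Sftpa1 and 0.992 for Sftpb. It was 0.984 for Lamp3, 0.974 for Slc34a2, 0.962 for Sftpd and 0.923 for Napsa. Abca3 had 0.739, Ager 0.723 and Scgb1a1 −0.668. Without SmoM2 3 and control 4 it was 0.976 for Sftpa1, 0.969 for Sftpb, 0.903 for Lamp3 and 0.855 for Slc34a2 over the remaining 6 libraries. It was 0.697 for Sftpd and 0.029 for Napsa, and −0.066 for Ager, −0.248 for Abca3 and 0.018 for Scgb1a1. The likeness of Sftpa1, Sftpb, Lamp3 and Slc34a2 to Sftpc thus extended to the libraries that did not choose them, whereas that of Napsa, Ager and Abca3 rested on the 2 high libraries, as did the opposite order of Scgb1a1.

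Promoter sequences are shown for the genes that best set out these different behaviours: Sftpb and Sftpa1, which tracked Sftpc most closely, Slc34a2, which was high in the same libraries, and Abca3, which varied least. Each sequence runs from 250 bases before to 50 bases after the RefSeq start in GRCm38.p6, and 6 of the 10 genes had one in the RefSeq table. Capitals mark CTCAAG or CAAGTG on either strand, motifs of the kind bound by NKX2-1, the transcription factor of lung epithelium. Sftpb lies at chr6:72304360-72304659, plus strand. Sftpa1 lies at chr14:41131538-41131837, plus strand. Slc34a2 lies at chr5:53049103-53049402, plus strand, at a start inside the gene as GENCODE gives it. Abca3 lies at chr17:24351773-24352072, plus strand.
Sftpb: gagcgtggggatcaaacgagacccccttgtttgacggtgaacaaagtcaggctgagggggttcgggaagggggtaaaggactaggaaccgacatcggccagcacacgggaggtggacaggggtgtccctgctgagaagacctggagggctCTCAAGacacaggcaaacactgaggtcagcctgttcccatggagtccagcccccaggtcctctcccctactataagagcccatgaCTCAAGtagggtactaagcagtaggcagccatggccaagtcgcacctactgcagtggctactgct
Sftpa1: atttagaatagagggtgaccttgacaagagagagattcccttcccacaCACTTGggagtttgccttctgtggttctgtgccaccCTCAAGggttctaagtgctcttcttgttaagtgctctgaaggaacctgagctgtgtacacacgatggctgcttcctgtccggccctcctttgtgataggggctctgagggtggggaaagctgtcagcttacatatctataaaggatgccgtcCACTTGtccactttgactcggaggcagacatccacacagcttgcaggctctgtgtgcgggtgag
Slc34a2: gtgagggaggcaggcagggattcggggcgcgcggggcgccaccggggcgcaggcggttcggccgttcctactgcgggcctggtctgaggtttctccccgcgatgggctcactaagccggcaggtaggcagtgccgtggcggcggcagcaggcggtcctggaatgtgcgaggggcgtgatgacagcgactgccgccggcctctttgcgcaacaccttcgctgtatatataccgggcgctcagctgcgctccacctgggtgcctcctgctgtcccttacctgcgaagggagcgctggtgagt
Abca3: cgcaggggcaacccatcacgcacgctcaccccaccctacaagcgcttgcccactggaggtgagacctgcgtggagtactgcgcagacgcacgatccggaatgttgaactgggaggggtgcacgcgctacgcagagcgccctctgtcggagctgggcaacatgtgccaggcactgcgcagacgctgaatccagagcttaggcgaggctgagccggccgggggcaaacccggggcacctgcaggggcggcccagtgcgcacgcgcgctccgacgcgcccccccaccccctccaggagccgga

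The Sftpb promoter held CTCAAG at positions −100 and −15 from the start, and Sftpa1 held it at −166, with CAAGTG on the minus strand at −202 and −14. CTCAAG was in 15.9% of all 32851 promoters and CAAGTG in 13.6%. Neither was in the Slc34a2 or Abca3 window, nor in those of Lamp3 and Ager. TGTTTGC, a motif of the FOXA family, was on the minus strand at −88 in Sftpb, and 5.07% of promoters held it. Lamp3 held TGTTTAC, of the same family, at −92, found in 3.65% of promoters. Sftpb had TATAAG and Sftpa1 TATAAA at −30, found in 7.43% and 13.6% of promoters. Slc34a2 had TTGCGCAA, a motif of the C/EBP family, at −48, which 0.183% of promoters held. The Slc34a2 and Abca3 windows were rich in CpG, with 30 and 29 against a median of 7 over all promoters, while Sftpb had 8 and Sftpa1 5. These matches describe the letters in the windows only.

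The SmoM2-labelled libraries did not differ detectably from the control libraries in any of the 10 genes. With all 8 libraries, 0 of the 10 genes were called at an adjusted p of 0.05 by edgeR's quasi-likelihood test with Benjamini-Hochberg adjustment, and 0 of 20162 tested genes (0%) were. None of the 10 had an unadjusted p under 0.05, against 756 tested genes (3.75%). By limma-voom 0 of the 10 and 0 of all genes were called, and by DESeq2, which gave no adjusted p for Sftpd, 0 of the 10 were called against 69 of 30032 genes (0.23%). The authors' deposited table gave 15 genes an adjusted p under 0.05, with 0 of the 10 among them. The 2 groups overlapped for all 10 genes, while 2.44% of tested genes had groups that did not.

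Sftpc averaged 248 ± 217 CPM in SmoM2-labelled and 387 ± 404 CPM in control libraries (SD, n = 4 each). Its log2 difference was −0.64 (SE 0.76, 95% interval −2.37 to 1.09). Sftpb differed by −0.33 (−2.0 to 1.34), Sftpa1 by −0.45 (−2.14 to 1.25), Sftpd by −0.38 (−2.17 to 1.40), Lamp3 by −0.30 (−1.85 to 1.26), Napsa by −0.30 (−1.49 to 0.90) and Slc34a2 by −0.17 (−1.97 to 1.62) on the same scale. These intervals spanned more than a 2-fold change in at least 1 direction. Abca3 was the most precise, at 88.2 ± 14.3 CPM in SmoM2-labelled and 84.5 ± 9.41 CPM in control libraries, a log2 difference of 0.06 (−0.23 to 0.36). Ager averaged 8.22 ± 0.613 CPM in SmoM2-labelled and 10.6 ± 4.05 CPM in control libraries, a difference of −0.36 (−0.92 to 0.20). Scgb1a1 averaged 52.9 ± 24.2 CPM in SmoM2-labelled and 45.4 ± 10.8 CPM in control libraries, a difference of 0.22 (−0.56 to 1.01). The adjusted p of every gene was 0.9999 by edgeR's quasi-likelihood test with Benjamini-Hochberg adjustment. By sign alone 8 of the 10 were lower in the SmoM2-labelled libraries, where 51% of all tested genes were, and their median log2 difference was −0.31 against 0.00 over all tested genes.

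These differences depended on control 4 and SmoM2 3. Without control 4 the log2 difference became 0.42 for Sftpc, 0.63 for Sftpb, 0.55 for Sftpa1, 0.82 for Sftpd, 0.59 for Lamp3, 0.43 for Napsa and 0.92 for Slc34a2. Without SmoM2 3 it became −1.44 for Sftpc, and Abca3 turned to −0.06. Slc34a2 also turned to 0.05 without SmoM2 2 and to 0.12 without SmoM2 4, and Scgb1a1 turned to −0.03 without SmoM2 1. In these refits no gene passed the threshold.

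The 6 libraries that did not serve to choose the genes gave narrower estimates. Without SmoM2 3 and control 4, Sftpc averaged 143 ± 64.2 CPM in SmoM2-labelled and 186 ± 22.7 CPM in control libraries (SD, n = 3 each). The log2 difference was −0.38 (SE 0.31, 95% interval −1.13 to 0.37) for Sftpc, −0.20 (−0.92 to 0.52) for Sftpb, −0.32 (−0.93 to 0.28) for Sftpa1 and −0.01 (−0.58 to 0.56) for Sftpd. It was −0.11 (−0.89 to 0.68) for Lamp3, −0.01 (−0.37 to 0.35) for Napsa, 0.04 (−0.75 to 0.84) for Slc34a2 and 0.01 (−0.18 to 0.21) for Abca3. For Ager it was −0.13 (−0.56 to 0.30) and for Scgb1a1 0.35 (−0.21 to 0.91). All these intervals but that of Sftpc stayed within a 2-fold change in both directions. The median standard error of the 10 genes was 0.25 here, against 0.71 with all 8 libraries. SmoM2 3 and control 4 chose the genes by their high values. For the genes high there, a smaller spread without them thus follows from the choice and is no gain in precision.

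By edgeR's quasi-likelihood test with Benjamini-Hochberg adjustment the adjusted p of the 10 genes lay between 0.9548 and 0.9989 in the 6 libraries, and 0 of them were called, against 0 of 20167 tested genes (0%). DESeq2 and limma-voom also called 0 of the 10. None had an unadjusted p under 0.05, against 1233 tested genes (6.11%). The groups overlapped for all 10 genes, where 11.4% of tested genes had groups that did not. By sign 7 of the 10 were lower in the SmoM2-labelled libraries and 49.7% of all tested genes were, with a median log2 difference of −0.06 against 0.00.

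**Figure D3:**
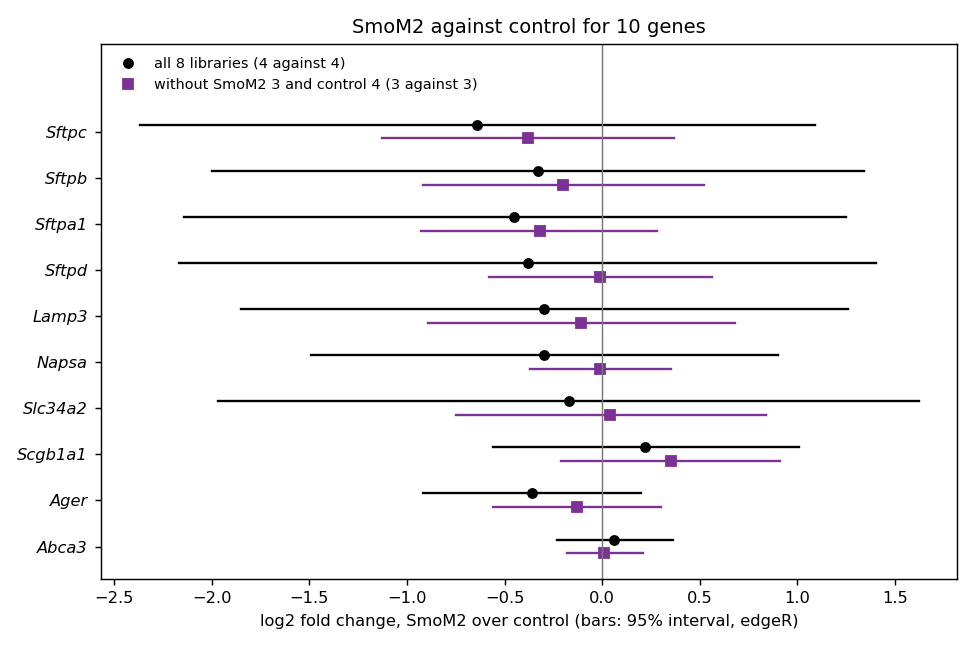
Log2 difference of SmoM2-labelled over control libraries for each gene with its 95% interval, from all 8 libraries and from the 6 that leave out SmoM2 3 and control 4. Every interval crosses 0, and the intervals of the type 2 genes are narrower in the 6 libraries, such as −0.37 to 0.35 for Napsa.

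Other genes of the same cell types were read from lists that do not hold the 10 genes. Of 13 further alveolar type 2 genes, 7 were over 2-fold above the median of the 6 other libraries in both SmoM2 3 and control 4, and the median ratio was 2.18 in SmoM2 3 and 2.37 in control 4. Of the 13, 10 were above and 2 below the median of the 6 others in both libraries. Chil1, a chitinase-like secreted protein, was at 36.1 CPM in SmoM2 3 and 58.3 CPM in control 4, against 10.4 to 18.8 CPM in the 6 others. Lyz1, a lysozyme, was at 28.8 and 21.8 CPM in those libraries, against 6.52 to 13.9 CPM. Slpi went the other way, with ratios of 0.53 in SmoM2 3 and 0.60 in control 4. Chil1, Lyz1 and Slpi were singled out after their values were seen. The 3 most abundant genes of the list moved less: Cd74, the invariant chain shared with immune cells, had ratios of 1.38 in SmoM2 3 and 1.18 in control 4, Fasn, the fatty acid synthase, 0.91 and 0.95, and Lpcat1, a surfactant lipid enzyme, 1.35 and 1.35. The list summed to 689 CPM in SmoM2 3 and 708 CPM in control 4, against 485 to 692 CPM in the others, and none of its 13 genes was called between SmoM2-labelled and control libraries in either fit.

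The 15 other alveolar type 1 genes had median ratios of 0.75 in SmoM2 3 and 1.04 in control 4, and 1 of them was over 2-fold above in both. In both libraries, 5 of the 15 were above and 6 below the median of the 6 others. Their sum was 542 CPM in SmoM2 3 and 575 CPM in control 4, against 532 to 687 CPM in the 6 others. Emp2, a membrane protein of type 1 cells, averaged 180 ± 14.9 CPM in SmoM2-labelled and 221 ± 17.6 CPM in control libraries, and Vegfa, an angiogenic factor, averaged 80.4 ± 10.8 CPM in SmoM2-labelled and 105 ± 22.2 CPM in control libraries (SD, n = 4 each). Spock2, a matrix proteoglycan, averaged 150 ± 18.5 CPM in SmoM2-labelled and 126 ± 22.3 CPM in control libraries. Clic5, a chloride channel family gene, was at 5.46 CPM in SmoM2 3 and 16.5 CPM in control 4, against 2.51 to 4.02 CPM in the others. Pdpn, the podoplanin gene of this list, was on the other side, at 40.5 CPM in SmoM2 3 and 42.4 CPM in control 4, against 75.9 to 118 CPM. Pdpn averaged 81.4 CPM over the 8 libraries, against 9.39 CPM for Ager, and which cells gave its level was not tested. Igfbp2, an insulin-like growth factor binding protein, was at 1.24 CPM in SmoM2 3 and 1.25 CPM in control 4, against 3.76 to 7.85 CPM. Clic5, Pdpn and Igfbp2 were singled out after their values were seen. Of 15 type 1 genes, 2 had a higher and 13 a lower mean level in SmoM2-labelled than in control libraries, and none was called by edgeR. Krt7, a simple epithelial keratin singled out after its values were seen, averaged 5.81 ± 1.16 CPM in SmoM2-labelled and 11.7 ± 1.67 CPM in control libraries, a log2 difference of −1.01 (SE 0.18), and DESeq2 called it. It was the 1 gene of the epithelial lists that DESeq2 called.

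The 11 tested club cell genes other than Scgb1a1 had median ratios of 0.42 in both SmoM2 3 and control 4, and 9 of them were below the median of the 6 others in both. Cyp2f2, a club cell cytochrome P450, was at 7.59 CPM in SmoM2 3 and 8.61 CPM in control 4, against 15.0 to 20.6 CPM in the others, as for Scgb1a1. Cbr2, a carbonyl reductase, went the other way, at 37.4 CPM in SmoM2 3 and 52.0 CPM in control 4, against 16.6 to 21.6 CPM. With Cbr2 included and Scgb1a1 left out, the club cell list summed to 49.1 CPM in SmoM2 3 and 65.9 CPM in control 4. The 6 others had 43.3 to 55.2 CPM, so the sum was not lower in these libraries. Cldn10, a tight junction claudin, averaged 2.94 ± 1.19 CPM in SmoM2-labelled and 2.08 ± 0.672 CPM in control libraries. Gabrp, Reg3g and Cyp2a5 were at 0 in SmoM2 3, and Muc5b, Reg3g and Cyp2a5 were at 0 in control 4. These genes were near the floor elsewhere too. Reg3g was at 0 in every SmoM2-labelled library, Cyp2a5 reached at most 0.0797 CPM and Gabrp at most 0.436 CPM in any library. Of the 13 club cell genes other than Scgb1a1, 7 averaged under 1 CPM. Of the 14 tested ciliated cell genes, 5 were above and 4 below the median in both libraries. The most abundant, Tppp3, was at 139 CPM in SmoM2 3 and 97.7 CPM in control 4, against 140 to 444 CPM. Tppp3 stood apart from its list, at a mean of 222 CPM over the 8 libraries against 0.678 CPM for Foxj1. Of the 16 listed ciliated cell genes, 11 averaged under 1 CPM, and which cells gave the Tppp3 level was not tested. Ccdc39, a gene of motile cilia, averaged 5.17 ± 0.899 CPM in SmoM2-labelled and 4.77 ± 0.876 CPM in control libraries, and Sec14l3 averaged 3.13 ± 0.781 CPM in SmoM2-labelled and 4.15 ± 1.16 CPM in control libraries. None of the genes of these lists was called.

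Of 19 genes shared by epithelia, 13 were above the median of the 6 others in both SmoM2 3 and control 4 and 6 were over 2-fold above it. All 19 were lower in SmoM2-labelled than in control libraries by sign, with a median log2 difference of −0.42 with 8 libraries and −0.48 with 6, in which 18 were lower, and none was called by edgeR. Spint2, a protease inhibitor, averaged 16.8 ± 3.26 CPM in SmoM2-labelled and 24.4 ± 4.85 CPM in control libraries (SD, n = 4 each). Krt19, a keratin also made by mesothelium, averaged 14.0 ± 2.64 CPM in SmoM2-labelled and 21.2 ± 8.72 CPM in control libraries. The 10 mesothelial markers, which include Krt19, summed to 117 to 244 CPM in SmoM2-labelled and 291 to 529 CPM in control libraries, and their part in these differences was not tested.

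Of 14 genes of surfactant transcription and processing, 5 were over 2-fold above in both libraries. Nkx2-1, singled out after its values were seen, was at 6.84 CPM in SmoM2 3 and 9.70 CPM in control 4, against 1.77 to 3.76 CPM in the others, while Gata6, among the 3 most abundant of that list, was at 48.3 CPM in SmoM2 3 and 41.5 CPM in control 4, against 52.4 to 102 CPM. Nfib, a lung transcription factor, averaged 335 ± 26.3 CPM in SmoM2-labelled and 414 ± 76.5 CPM in control libraries, and Ptprg, a receptor phosphatase, 105 ± 6.98 CPM in SmoM2-labelled and 99.0 ± 5.24 CPM in control libraries. None of the 14 was called.

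**Figure D4:**
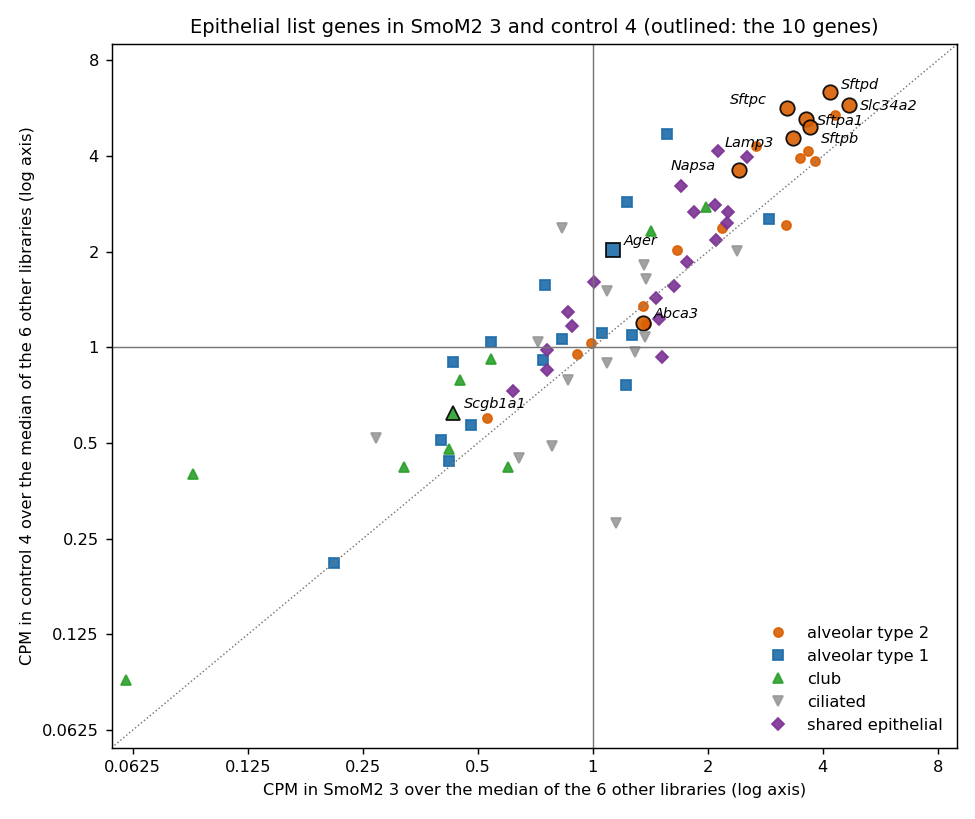
Ratio of each gene to the median of the 6 other libraries in SmoM2 3 and in control 4, both axes log, for the 10 genes and further tested genes. The further genes are those of the alveolar type 2, alveolar type 1, club, ciliated and shared epithelial lists. The 7 type 2 members sit above 2-fold on both axes, whereas Scgb1a1 sits below 1 on both, at 0.43 in SmoM2 3 and 0.62 in control 4; Gabrp and Muc5b, with a ratio of 0 in 1 of these libraries, lie outside the axes.

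Other cell types also differed between these libraries. The 15 fibroblast markers summed to 27206 CPM in SmoM2 3 and 25105 CPM in control 4, against 29277 to 38054 CPM in the 6 others, and 6 of them were above and 8 below the median in both. The 18 immune markers summed to 794 CPM in SmoM2 3 and 707 CPM in control 4, within the range of 536 to 1557 CPM of the others. The 12 endothelial markers summed to 122 CPM in SmoM2 3 and 247 CPM in control 4, against 122 to 199 CPM, and 5 were over 2-fold above in both, with 7 above and 4 below the median. Cdh5, an endothelial junction gene, was at 10.4 CPM in SmoM2 3 and 44.4 CPM in control 4, against 3.01 to 8.60 CPM, whereas Tek, an endothelial receptor, was at 23.0 CPM in SmoM2 3 and 28.5 CPM in control 4, against 23.8 to 91.3 CPM. Both were singled out after their values were seen. The mesothelial markers summed to 117 CPM in SmoM2 3 and 291 CPM in control 4, against 144 to 529 CPM. The 8 basal and neuroendocrine markers, of which 5 were tested, summed to 25.6 CPM in SmoM2 3 and 18.0 CPM in control 4, against 18.2 to 39.5 CPM. Syp, a synaptic vesicle protein, made up most of that sum, at 18.6 ± 2.25 CPM in SmoM2-labelled and 16.2 ± 3.10 CPM in control libraries, while the basal cell factor Trp63 averaged 3.11 ± 0.933 CPM in SmoM2-labelled and 3.91 ± 0.942 CPM in control libraries. The basal keratin Krt5 was at 0.148 CPM in SmoM2 3, at 0 in control 4 and at 6.14 CPM in control 3. No marker of any list was at 0 in all libraries, and the part of these cell types in the levels of the 10 genes was not tested.

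SmoM2 3 and control 4 were both female by Xist and Y-linked transcripts. So were SmoM2 4, with Sftpc at 86.4 CPM, and control 2, with Sftpc at 188 CPM, against 129 to 213 CPM in the male libraries, so the high level was not shared by all female libraries.

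Searching 13249 genes for the pattern most like that of Sftpc over the 8 libraries, by Pearson's r of log2 CPM, gave Lgi3 at 0.987, Mlc1 at 0.980, Rbm18 at 0.977, Hc at 0.972 and Cxcl15 at 0.971. Irx2 and Nxt2 followed at 0.968, Atad1 and Zxdb at 0.964 and Tex26 at 0.963. Of these 10, 6 were over 2-fold above the 6 other libraries in both SmoM2 3 and control 4. Cxcl15, a chemokine of lung epithelium, was at 67.9 CPM in SmoM2 3 and 77.1 CPM in control 4, against 10.8 to 27.7 CPM in the others, and Hc, complement C5, at 57.1 and 71.2 CPM, against 8.26 to 24.7 CPM. Rbm18 and Atad1 were also highest in control 4 and next in SmoM2 3, over a far smaller range, as with 31.9 CPM in SmoM2 3 and 37.0 CPM in control 4 for Rbm18, against 24.4 to 29.4 CPM.

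For the genes that departed from Sftpc the most alike were others. Ager was closest to Ube4b at 0.987, Mtch2 at 0.985, Eci2 at 0.978, Tmem147os at 0.977 and Timm44 at 0.975. Scgb1a1 was closest to Akt1 at 0.977, Bean1 at 0.975, Zfp449 at 0.961, Ube2g1 at 0.960 and Frzb at 0.958. Frzb, a secreted Wnt antagonist, was at 2.27 CPM in SmoM2 3 and 2.45 CPM in control 4, against 6.01 to 33.8 CPM in the 6 others. Abca3 was closest to Xrn1 at 0.982, Iqcb1 at 0.964, Atp8a1 at 0.955, Trim56 at 0.954 and Arhgap6 at 0.953. Of the 5 nearest genes to each of these 3, none was over 2-fold above in both libraries. With 8 points and 13249 candidates these r are ranks within the table and carry no test.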

How the data were processed

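Expected counts per Ensembl gene for 4 SmoM2-labelled and 4 control libraries were deposited by the authors as whole numbers, neither scaled nor pooled; mm10 and the tools StringTie, HISAT, FastQC and DESeq stand in the submitters' processing notes, with no versions or roles. The authors' deposited table of their own comparison, per the file headers, holds signal means of size-factor-scaled counts, a fold (ratio), a log2 fold change and p-values before and after adjustment. The strand setting is not given in the sources used here, so overlapping antisense reads cannot be told apart.

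From the counts, 20162 genes passing filterByExpr were tested with edgeR 4.0.16's quasi-likelihood test (TMM, robust, R 4.3.3) and Benjamini-Hochberg adjustment at 0.05, over 8 libraries and over 6. CPM used TMM library sizes and correlations log2 CPM with a prior count of 2. DESeq2 1.42.0 and limma 3.58.1 were alternatives. The code was tested on simulated data. Gene names, exon lengths and coordinates came from GENCODE M21 and covered 99.3% of identifiers, and promoters came from RefSeq (GRCm38.p6).

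The 10 genes, the lists and the tests were chosen with earlier results of these data known. Named outside the 10 were the 3 most abundant genes of each epithelial list, of which 1 is not reported here, and the nearest genes by Pearson's r among those with a mean of at least 1 CPM. A few others are marked in the text as singled out after their values were seen.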

Additional observations from a re-analysis of the deposited data

Results flagged for a closer look

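In 9 of 20 groups of 4 libraries, 1 library lay far from the other 3 for its spread, measured by the gap to its nearest neighbour over the whole range; chance gives about 1 in 20 such groups. SmoM2 3 was far above the other SmoM2-labelled libraries for Sftpd, at 31.0 CPM, and Napsa, at 19.0 CPM. Control 4 was far above the other control libraries for Sftpc at 991.8 CPM, Sftpb at 207.0 CPM, Sftpa1 at 223.6 CPM, Sftpd at 47.0 CPM, Lamp3 at 37.3 CPM, Napsa at 28.4 CPM and Slc34a2 at 142.3 CPM. These 2 libraries are the ones the genes were chosen by, so the values describe that choice and cannot be set against the chance rate.

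Of 22 groups of summed marker levels, 2 had such a library. The basal and neuroendocrine markers summed to 39.5 CPM in control 3, the highest control library, and the immune markers to 573.8 CPM in control 2, the lowest control library. Neither is among the libraries in which the surfactant genes were high.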

How the results depend on the processing

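Over 15 alternative settings none of the 10 genes passed the threshold, and the smallest adjusted p was 0.821 by edgeR, DESeq2 or limma. Of 150 gene and setting pairs, 137 kept the direction of the log2 difference and 13 did not; Ager kept it in every setting. Leaving out 1 library at a time, the difference ran between −1.44 and 0.42 for Sftpc, −1.16 and 0.63 for Sftpb, −1.32 and 0.55 for Sftpa1, −1.21 and 0.82 for Sftpd, −1.0 and 0.59 for Lamp3, −0.74 and 0.43 for Napsa, −1.05 and 0.92 for Slc34a2, −0.03 and 0.47 for Scgb1a1, −0.51 and −0.08 for Ager, and −0.06 and 0.13 for Abca3. Slc34a2 also turned to 0.04 without control 4 and SmoM2 3 and to 0.02 with sex as a covariate. Over all genes DESeq2 called 69 where edgeR called 0, and 1 of these was among the genes of the epithelial lists (Krt7). Leaving out 1 library gave 0 to 1 calls over all genes, the 1 being Gm20716 without SmoM2 4; the cause was not tested. DESeq2 gave no adjusted p for Sftpd. No paired analysis was possible because the groups share no animal numbers in the labels. With 4 libraries a group and 1 high library in each, changes smaller than the intervals given for the type 2 genes were not detectable.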
